A study of Homo sapiens with 12 samples.

Results

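Rapamycin added to etoposide was compared with etoposide alone in SK-MEL-28, an established human melanoma cell line. The comparison used 6 of the 12 libraries of the series, 3 from cells given etoposide + rapamycin and 3 from cells given etoposide, and the other 6 came from A375, another melanoma line given the same treatments. All 6 SK-MEL-28 libraries received etoposide, so cells given rapamycin only, or neither drug, were not analysed here. These libraries followed drug assays of the study in which melanoma lines responded more strongly to etoposide when rapamycin, given to induce autophagy, was present. The study's methods call the 3 replicates of a group biological. The dose and exposure time behind the RNA are not given in the sources used here. Polyadenylated RNA was sequenced, and the libraries held 28396178 to 32499659 deposited counts. Of the 58312 rows deposited, 58307 carried a gene symbol, and 18897 passed the expression filter and were tested.

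Etoposide traps topoisomerase II on cut DNA and so leaves double-strand breaks. Rapamycin binds the protein FKBP1A, and the complex blocks mTORC1, a kinase that reads growth factors, amino acids, oxygen and energy. Active mTORC1 favours the translation of ribosomal protein and elongation factor mRNAs, raises HIF1A and with it the genes of glycolysis and low oxygen, drives lipid synthesis through the SREBP factors, and holds back autophagy and the making of lysosomes.

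The cells carried melanocyte lineage markers in part. Of 12 such markers 11 passed the filter, among them the lineage factors SOX10, MITF and PAX3 and the Schwann and melanocyte protein S100B. TYR, the rate-limiting enzyme of melanin synthesis, had raw counts of 0, 0 and 0 with etoposide + rapamycin and 2, 0 and 2 with etoposide. PMEL and MLANA, proteins of the pigment granule, averaged 66.9 and 27.3 normalized counts, that is, counts scaled by the trimmed mean of M-values (TMM) to a common library size. None of the 11 was called, and MITF was lower at the adjusted p alone (-0.50, adjusted p = 0.0032). SOX10 spread widely with etoposide + rapamycin, at 5066, 8807 and 12833 normalized counts, against 9728, 9119 and 12518 with etoposide.

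In bulk RNA, fewer cells of a type and less RNA per cell cannot be told apart, and this holds for each level below. A gene was called where edgeR's quasi-likelihood test gave an adjusted p under 0.05 and the fold change exceeded 1.5 in either direction, the thresholds of the study's methods. Fold changes are on the log2 scale, and a positive value is higher with rapamycin. By this rule 349 genes were higher (1.85% of those tested) and 594 lower (3.14%). At the adjusted p alone, 1668 were higher (8.83%) and 1914 lower (10.1%). The counts given for each list below are to be read against these shares. The median log2 fold change was 0.0053 over all genes tested. More called genes moved beyond a fold change of 2 downward than upward, 289 against 82. Groups did not overlap for 6787 of all genes tested (35.9%), higher with rapamycin in 17.5% and lower in 18.4%. Among the 943 called genes, which the call itself favours, it was 924.

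Among the lists described here, genes induced by low oxygen held many of the falls. HIF factors bind a short motif, the core of the hypoxia response element, written ACGTG or GCGTG and searched on both strands. The promoters of its 4 called and named members with the largest falls are printed because 11 of the 32 genes of this list were called, a share near that of the secreted factors, with 10 of 28 tested. Each line gives the 250 bases before the RefSeq start site (GRCh38.p14), 5′ to 3′ in the direction of the gene, with the motif or its reverse complement in capitals. CA9 lies on the forward strand at chr9:35673678-35673927, MIR210HG on the reverse strand at chr11:568458-568707, PPFIA4 on the forward strand at chr1:203026241-203026490 and DDIT4 on the forward strand at chr10:72273674-72273923.
CA9: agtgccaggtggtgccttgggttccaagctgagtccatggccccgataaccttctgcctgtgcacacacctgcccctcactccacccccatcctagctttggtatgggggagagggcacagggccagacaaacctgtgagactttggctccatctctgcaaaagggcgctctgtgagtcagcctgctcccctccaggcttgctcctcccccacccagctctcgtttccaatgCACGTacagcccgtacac
MIR210HG: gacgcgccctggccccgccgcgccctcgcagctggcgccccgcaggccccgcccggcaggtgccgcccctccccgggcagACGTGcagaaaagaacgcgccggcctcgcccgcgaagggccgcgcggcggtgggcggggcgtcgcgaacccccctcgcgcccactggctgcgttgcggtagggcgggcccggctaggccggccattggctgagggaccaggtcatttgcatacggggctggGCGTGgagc
PPFIA4: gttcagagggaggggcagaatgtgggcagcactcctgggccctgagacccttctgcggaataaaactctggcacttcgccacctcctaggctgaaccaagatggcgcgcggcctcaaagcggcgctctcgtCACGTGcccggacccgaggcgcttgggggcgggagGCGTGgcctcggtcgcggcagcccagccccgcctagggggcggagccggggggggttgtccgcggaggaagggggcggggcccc
DDIT4: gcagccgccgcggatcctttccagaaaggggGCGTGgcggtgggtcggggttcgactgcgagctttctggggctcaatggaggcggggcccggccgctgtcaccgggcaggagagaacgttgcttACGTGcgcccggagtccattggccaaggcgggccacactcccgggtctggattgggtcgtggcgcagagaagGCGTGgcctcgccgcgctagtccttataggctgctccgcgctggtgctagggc

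The CA9 stretch held 1 match, that of MIR210HG 2, and those of PPFIA4 and DDIT4 3 each. Of those in PPFIA4, 2 overlap in an E-box, CACGTG, a motif that contains ACGTG. RefSeq promoters (250 bases before to 50 after the start) were matched for 25 of the 32 genes of the hypoxia list, and 22 of them (88.0%) held ACGTG or GCGTG. Among the glycolysis genes it was 20 of 21 (95.2%). The share over the 27305 genes with a promoter was 52.4%. Lists with no called gene also held the motif often, as in ribosome biogenesis with 22 of 23 promoters (95.7%), and 49 of 63 promoters of the cytosolic ribosomal proteins, which were not lower, held it. With a window of 100 bases before to 50 after the start, the shares were 60.0% in the hypoxia list and 66.7% in glycolysis, against 36.2% over all genes. A match is a description of the letters and not of a bound site.

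CA9, the cell surface carbonic anhydrase that low oxygen induces, had the largest fall among genes with a mean of at least 100 normalized counts and groups that did not overlap. It stood at 798.5, 819.6 and 937.9 normalized counts in the 3 etoposide libraries and at 51.3, 26.1 and 15.9 in the 3 with rapamycin. The rapamycin libraries lay far below the others (log2 fold change -4.76, standard error 0.23, adjusted p = 8.34e-08). MIR210HG, the host transcript of the hypoxia microRNA miR-210, followed at 258.2, 273.5 and 293.7 with etoposide and 0, 52.3 and 37.8 with rapamycin (-3.21, standard error 0.50, adjusted p = 0.000733). It shares a locus with 1 other gene name, and DESeq2 did not call it (adjusted p = 0.102).

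Of the 32 hypoxia-inducible genes outside glycolysis, all of which passed the filter, 11 were called lower and none higher. At the adjusted p alone 25 were lower and 1 higher, and the median log2 fold change was -0.42. BNIP3, a mitochondrial protein that marks mitochondria for removal by autophagy, had 4553, 4614 and 5148 normalized counts with etoposide and 2127, 2136 and 2045 with rapamycin. The groups were far apart against a narrow spread (log2 fold change -1.18, standard error 0.059, adjusted p = 8.34e-08). PPFIA4, a liprin of cell contacts, fell by 1.27 on the log2 scale. NDRG1, a stress-induced protein of growth arrest, fell by 0.77. Among the members that were not called, VEGFA, the angiogenic growth factor, had -0.32 and ANGPTL4, an inhibitor of lipoprotein lipase, had -0.19, both at an adjusted p under 0.05. MXI1, an antagonist of MYC, was the member higher at the adjusted p alone (0.27). VEGFA and MXI1 were picked after their values were seen.

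Glycolysis genes were lower too, from glucose handling to lactate. All 23 genes of glucose uptake and glycolysis passed the filter. Of these 7 were called lower and none higher, 20 were lower at the adjusted p alone, and the groups lay apart, lower with rapamycin, in 22, against 18.4% of all genes tested. The median log2 fold change was -0.41. ALDOC, an aldolase, went from 5276, 6318 and 6014 normalized counts to 1202, 1076 and 1018 (-2.42, standard error 0.079, adjusted p = 5.39e-09). PDK1, a kinase of pyruvate dehydrogenase, went from 1014, 942.1 and 1014 to 361.2, 359.5 and 323.9 (-1.51, standard error 0.085, adjusted p = 1.88e-07). HK2, the hexokinase of growing cells, went from 3657, 3691 and 3887 to 2175, 1775 and 1877 (-0.95, standard error 0.069, adjusted p = 1.64e-06). In each of the 3 the highest rapamycin library lay well below the lowest etoposide library.

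The other called members, named after their values were seen, were PGK1, ENO2, PGAM1 and LDHA, enzymes of the later steps, with log2 fold changes of -0.78, -0.76, -0.67 and -0.66. The members with the highest counts had smaller changes that did not reach the fold change threshold. PKM, pyruvate kinase, was at 89852, 89826 and 89558 with etoposide and 66077, 64688 and 65611 with rapamycin (-0.46, adjusted p = 8.96e-07). GAPDH was at -0.20 (adjusted p = 0.000433). Summed over the 23 genes, the level was 19184, 19467 and 19366 CPM (counts scaled by library size) with etoposide and 14355, 14730 and 14549 with rapamycin. SLC16A3, the lactate exporter, was the 1 member with a positive value (0.06, not called), again chosen after its value was seen.

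**Figure D1:**
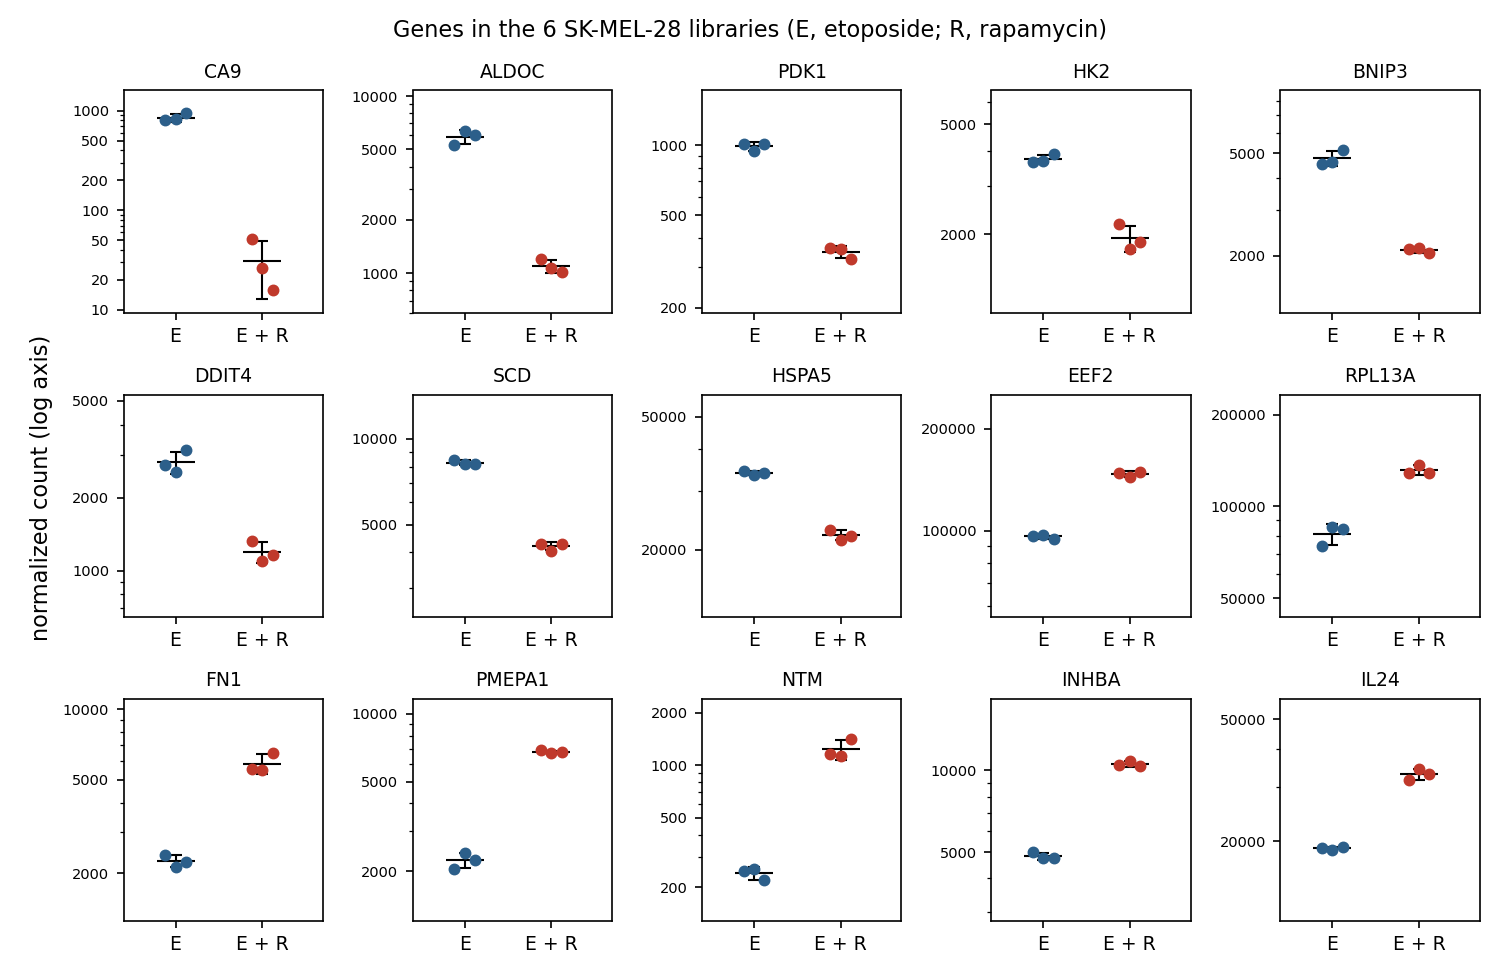
Normalized counts on a log axis for 15 named genes in the 3 etoposide libraries (E, blue) and the 3 etoposide + rapamycin libraries (E + R, red) of SK-MEL-28, with bars for the mean ± SD (n = 3). In each of the 15 panels the groups do not overlap, with CA9 falling from between 798.5 and 937.9 to between 15.9 and 51.3 and PMEPA1 standing at 6702 to 6879 with rapamycin against 2046 to 2406.

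Genes that restrain mTORC1 itself were partly lower. Of 22 brakes and nutrient sensors 21 passed the filter, 3 were called lower and none higher, and the median was -0.17. DDIT4, which activates the TSC complex under stress and is also a hypoxia gene, was at 2714, 2547 and 3127 normalized counts with etoposide and 1328, 1100 and 1159 with rapamycin (-1.22, standard error 0.083, adjusted p = 7.75e-07). SESN3, a sestrin, was at 736.5, 697.0 and 737.1 against 400.7, 375.9 and 257.3 (-1.07, standard error 0.14, adjusted p = 0.00013). The groups did not overlap in either gene. The arginine sensor CASTOR1, noted after its values were seen, was at 112.1, 109.4 and 108.8 against 68.1, 52.3 and 30.8 (-1.13, adjusted p = 0.00729). TSC2, a subunit of the TSC complex, had 0.12 and the mTORC1 subunit AKT1S1 had -0.06, and neither was called.

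Ribosomal protein mRNAs were higher as a block. Of the 79 cytosolic ribosomal protein genes, all of which passed the filter, 76 were higher at the adjusted p alone and none lower, and the groups lay apart, higher with rapamycin, in 75, against 17.5% of all genes tested. Their median log2 fold change was 0.50, under the fold change threshold, so that 13 were called, a count that became 22 without etoposide + rapamycin replicate 1, 6 without etoposide + rapamycin replicate 2 and 7 with library totals in place of TMM. RPL13A, a protein of the large subunit, was at 73861, 85628 and 84536 normalized counts with etoposide and 128880, 137020 and 128770 with rapamycin (0.69, standard error 0.051, adjusted p = 1.64e-06). RPL12 had 0.68, and RPLP0 of the stalk had 0.37 and was not called. RPS26 was the 1 gene of the block with a negative value (-0.05, not called), picked after its value was seen.

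In percent of all counts, ribosomal protein genes made up 6.63, 6.99 and 6.90 with etoposide and 9.14, 9.93 and 9.30 with rapamycin. Their transcripts are short, and over all genes the median log2 fold change ran from 0.043 among the shortest genes, those with a median exon length of 1624.5 bases when genes were divided into 5 equal bins, to -0.042 among the longest. The part of length in the result was not tested. Of the 79 rows 38 share a locus with another gene name, among them RPL13A, and how the counting split reads between such names, or between a gene and its pseudogenes, is not stated.

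The translation machinery followed in part. Among 30 translation factors 2 were called higher and none lower, with a median of 0.21. At the adjusted p alone 16 were higher and 1 lower, against 8.83% and 10.1% of all genes tested. EEF2, the elongation factor that moves the ribosome along, was at 96452, 97321 and 94520 normalized counts with etoposide and 148300, 143860 and 148850 with rapamycin (0.61, standard error 0.030, adjusted p = 8.34e-08). With library totals it fell under the fold change threshold (0.58). EIF3F, a subunit of initiation factor 3, had 0.69 (adjusted p = 4.36e-06). EEF1A1, which brings charged tRNA to the ribosome, had 0.56 (adjusted p = 3.97e-08) and stayed under the threshold. The factors that assemble ribosomes did not move as a block: of 28 ribosome biogenesis genes none was called, and 5 were higher and 6 lower at the adjusted p alone. NPM1 and NCL, the abundant nucleolar proteins, had 0.08 and -0.09.

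**Figure D2:**
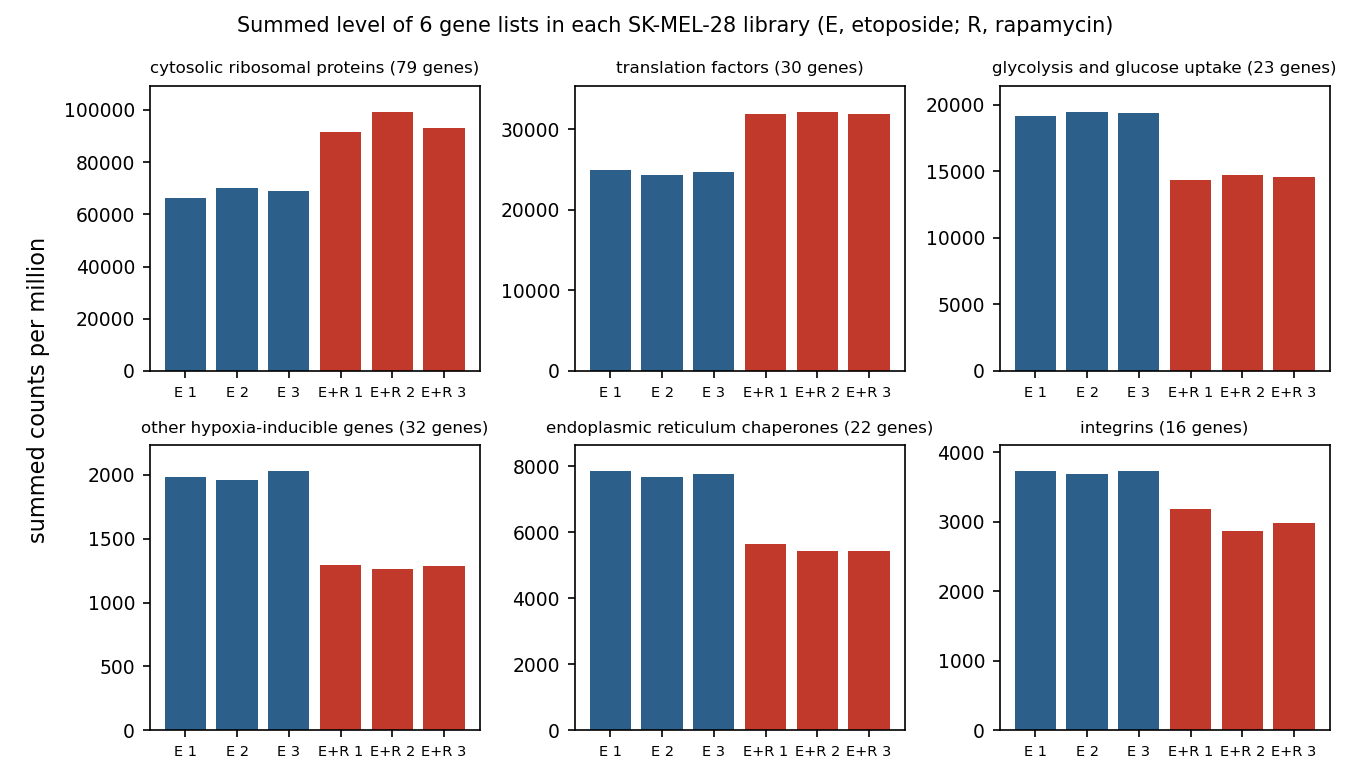
Summed CPM (library-size-scaled counts) of 6 gene lists in each of the 6 SK-MEL-28 libraries, etoposide in blue and etoposide + rapamycin in red, from an axis that starts at 0. The 3 rapamycin bars exceed the 3 etoposide bars for ribosomal proteins and translation factors and lie below them for the other 4 lists, with glycolysis between 14355 and 14730 against 19184 to 19467.

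Lipid synthesis was lower at single steps. Of 14 fatty acid genes 2 were called lower, SCD and ME1. SCD, the desaturase that makes oleate, was at 8430, 8140 and 8200 normalized counts with etoposide and 4289, 4037 and 4288 with rapamycin (-0.97, standard error 0.050, adjusted p = 9.04e-08). ME1, malic enzyme, a source of NADPH, had -0.66 (adjusted p = 9.44e-06). FASN, fatty acid synthase, was at -0.06 (adjusted p = 0.537) with groups that overlapped, and ACLY, which makes cytosolic acetyl-CoA, was at -0.22 (adjusted p = 0.00758).

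Of 24 sterol genes 23 passed the filter, and 2 were called lower and none higher. At the adjusted p alone 9 were lower and 1 higher, against 10.1% and 8.83% of all genes tested. DHCR7, the last enzyme of cholesterol synthesis, was at 1849, 1891 and 1848 against 1166, 1052 and 1143 with rapamycin (-0.73, adjusted p = 2.97e-06). STARD4, a carrier of cholesterol, had -0.74 (adjusted p = 0.000113). The median over the list was -0.11.

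Chaperones of the endoplasmic reticulum were lower by small amounts. Of 22 such genes 17 were lower and 1 higher at the adjusted p alone, with a median of -0.38, and 1 was called. HSPA5, the main chaperone of the compartment, was at 34354, 33430 and 33896 normalized counts with etoposide and 22941, 21400 and 21932 with rapamycin (-0.62, standard error 0.042, adjusted p = 7.70e-07). P4HB, a disulfide isomerase, had -0.57 and CALR, calreticulin, had -0.53. The number called was 4 without etoposide + rapamycin replicate 1, 2 without etoposide replicate 2 and 4 with library totals. The chaperones of the cytosol showed no call among 17, with 1 higher and 1 lower at the adjusted p alone, and HSPA8 and HSP90AB1, their leading members by count, had -0.00042 and 0.03.

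**Figure D3:**
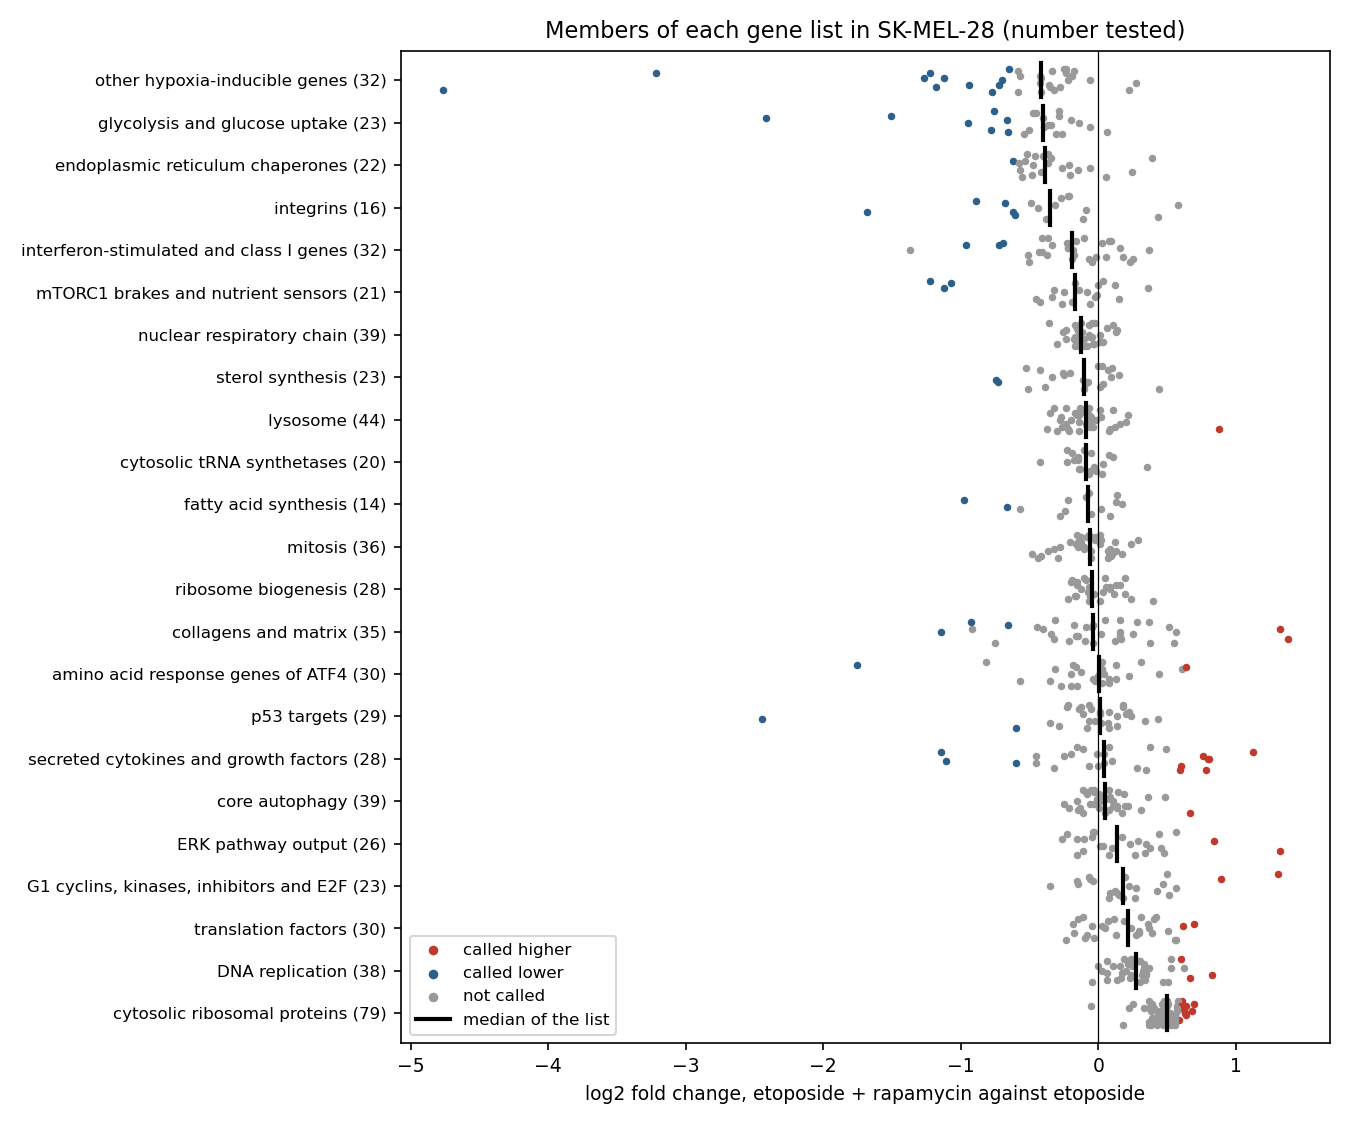
Log2 fold change of each tested member of 23 gene lists in SK-MEL-28 (points; red, called higher; blue, called lower; grey, not called) with the median of each list as a black bar, lists ordered by that median and the number tested in brackets. The hypoxia list (-0.42) and glycolysis (-0.41) lie lowest and the ribosomal proteins (0.50) highest.

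Of 39 core autophagy genes 7 were higher and 1 lower at the adjusted p alone, against 8.83% and 10.1% of all genes tested, and 1 was called, MAP1LC3A, one of the LC3 proteins that coat the autophagosome, at 312.2, 356.6 and 375.5 normalized counts with etoposide and 628.6, 561.1 and 471.0 with rapamycin (0.67, standard error 0.12, adjusted p = 0.00189). The groups did not overlap, yet the gene fell under the fold change threshold without etoposide + rapamycin replicate 1, which left no call in the list, while 2 members were called without etoposide replicate 1. SQSTM1, the cargo receptor p62, had 57264, 62044 and 58157 against 66620, 76590 and 76315 with rapamycin (0.31, adjusted p = 0.0014), and NBR1, a related receptor, had 0.19 (adjusted p = 0.0168). MAP1LC3B had 0.08 and ATG5, which joins in lipidating LC3, had 0.08, with overlapping groups in both. The median over the list was 0.05.

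Of 44 lysosome genes 3 were higher and 13 lower at the adjusted p alone, against 8.83% and 10.1% of all genes tested. The median was -0.09, and 1 gene was called, against 1.85% called higher and 3.14% called lower over all genes tested. That call was CTSF, cathepsin F, at 1080, 1058 and 1040 normalized counts with etoposide and 1930, 1876 and 2034 with rapamycin (0.88, standard error 0.057, adjusted p = 5.60e-07). PSAP, the precursor of the saposins, was at 0.01 and CTSD, cathepsin D, at -0.02. Neither drug's direct target was called. MTOR was at -0.11 (adjusted p = 0.264), FKBP1A at -0.08 (0.302) and TOP2B at -0.11 (0.226). TOP2A, the topoisomerase II of dividing cells, was at 2076, 1934 and 1881 with etoposide and 1546, 1562 and 1597 with rapamycin (-0.32, standard error 0.055, adjusted p = 0.00123), lower without reaching the fold change threshold.

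Replication genes were higher in part, and mitosis genes held no call. Of 38 DNA replication genes 3 were called higher and none lower, and the median was 0.27. At the adjusted p alone 15 were higher, against 8.83% of all genes tested. CDT1, which loads the replicative helicase, was at 348.2, 420.4 and 358.8 normalized counts with etoposide and 645.4, 667.8 and 682.6 with rapamycin (0.82, standard error 0.097, adjusted p = 7.03e-05). The helicase subunits MCM7 and MCM5 had 0.67 and 0.60, and MCM5 dropped under the threshold without etoposide replicate 1 and with library totals. None of the 36 mitosis genes was called. At the adjusted p alone 1 of them was higher and 6 lower, against 8.83% and 10.1% of all genes tested. CDC25B, a phosphatase that starts mitosis, had -0.30 (adjusted p = 0.00265).

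Cell cycle control added 2 calls of 23 genes tested, both higher. E2F2, an activator of S-phase genes, was at 51.0, 46.6 and 35.3 against 110.5, 105.7 and 113.3 with rapamycin (1.31, standard error 0.21, adjusted p = 0.000739), and CDKN1C, the inhibitor p57, had 0.89. CCND1, cyclin D1, had 0.27 (adjusted p = 0.000387) and CDKN1A, the inhibitor p21 and a p53 target, had -0.35 (adjusted p = 3.84e-05), both short of the threshold.

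Among 30 p53 targets, the genes that DNA damage induces, 29 passed the filter and 2 were called lower. SFN, the checkpoint protein stratifin, was at 209.1, 218.8 and 185.0 normalized counts with etoposide and 27.6, 52.3 and 32.8 with rapamycin (-2.45, standard error 0.22, adjusted p = 7.81e-06). GDF15, a stress cytokine, was at 8485, 10062 and 9956 against 5618, 6507 and 6730 (-0.60, adjusted p = 0.00016). It fell under the fold change threshold without etoposide + rapamycin replicate 1, etoposide replicate 2 or etoposide replicate 3, which left 1 call. At the adjusted p alone 5 of the 29 were higher and 6 lower, against 8.83% and 10.1% of all genes tested. MDM2, the ligase that degrades p53, had 0.07 with overlapping groups.

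Of 26 genes of ERK pathway output 12 were higher and 1 lower at the adjusted p alone, against 8.83% and 10.1% of all genes tested, and the median was 0.14. EGR1 and EGR2, immediate early factors of the ERK pathway, were the 2 called, with 0.84 and 1.32. EGR1 was at 940.6, 899.6 and 1144 against 1963, 1779 and 1600 with rapamycin (adjusted p = 5.05e-05). IRS2, the insulin receptor substrate, was at 19686, 20724 and 20129 against 31397, 28718 and 31173 (0.59, standard error 0.046, adjusted p = 2.76e-06), and IGF1R, the receptor for insulin-like growth factor, had 0.59 (adjusted p = 2.52e-05). Both lie at the edge of the fold change threshold, and neither was called with library totals or without etoposide + rapamycin replicate 1. Without etoposide + rapamycin replicate 3 or etoposide replicate 1 IRS2 was not called, and without etoposide replicate 3, or with a filter of 10 counts in every library, IGF1R was not. PIK3R3, a regulatory subunit of PI3K, was at 1052, 1050 and 1055 against 539.8, 415.1 and 431.2 (-1.19, standard error 0.098, adjusted p = 4.18e-06). The receptor AXL had 0.52 (adjusted p = 6.67e-06) and was not called.

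Secreted factors held calls in both directions, 7 higher and 3 lower of 28 tested, against 1.85% and 3.14% of all genes tested. INHBA, the activin A subunit, was at 4997, 4758 and 4750 normalized counts with etoposide and 10435, 10840 and 10363 with rapamycin (1.13, standard error 0.049, adjusted p = 3.97e-08). IL24, a cytokine first found in differentiating melanoma cells, was at 19056, 18742 and 19126 against 31840, 34426 and 33073 (0.80, standard error 0.043, adjusted p = 1.23e-07). AREG, a ligand of the EGF receptor, had 0.78 (adjusted p = 0.00158). On the lower side, EGF was at 267.2, 264.4 and 265.9 against 134.2, 112.2 and 114.3 (-1.14, adjusted p = 5.40e-05), and FGF1, a fibroblast growth factor, had -1.11. The count of higher calls was 4 without etoposide + rapamycin replicate 2 and 4 without etoposide replicate 1.

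Integrins were lower in most cases. Of 16 integrin genes 5 were called lower and none higher, and at the adjusted p alone 12 were lower and 1 higher, with a median of -0.35. ITGA11, a collagen receptor subunit, was at 431.3, 392.1 and 464.8 normalized counts with etoposide and 142.1, 139.5 and 120.2 with rapamycin (-1.68, standard error 0.12, adjusted p = 1.63e-06). ITGA9 and ITGA10 had -0.89 and -0.68. Without etoposide replicate 3 the count of lower calls was 3, and 1 integrin was called higher without etoposide + rapamycin replicate 2, etoposide + rapamycin replicate 3 or etoposide replicate 1.

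Matrix genes split. FN1, fibronectin, was at 2394, 2137 and 2240 normalized counts with etoposide and 5555, 5494 and 6525 with rapamycin (1.38, standard error 0.072, adjusted p = 1.07e-07), and ESM1, a secreted proteoglycan, had 1.32. Those 2 were the higher calls of 35 matrix genes tested, against 3 lower. SPP1, osteopontin, was at 2049, 2143 and 1984 against 1003, 1121 and 1133 (-0.92, standard error 0.063, adjusted p = 7.75e-07). MMP1, the interstitial collagenase, had -0.66 and COL4A4, a basement membrane collagen, had -1.15 from low counts, and the COL4A4 call was lost when etoposide replicate 2 was left out (adjusted p = 0.0553). At the adjusted p alone 9 matrix genes were higher and 9 lower, and the median was -0.04.

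Interferon-stimulated genes were lower where they were called at all, 3 of 32 with none higher, and 14 were lower and 2 higher at the adjusted p alone. IFIT1, which binds foreign RNA ends, was at 368.2, 339.4 and 323.5 against 229.9, 158.0 and 140.1 (-0.96, adjusted p = 0.00129). BST2 and IRF9 had -0.72 and -0.69. BST2 was not called without etoposide + rapamycin replicate 2 (adjusted p = 0.0699) or etoposide replicate 3 (0.095), and IRF9 shares its locus with other names, whose sum was not called (-0.05, adjusted p = 0.586). The class I chain B2M was at -0.04.

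In the amino acid response driven by ATF4, 1 of 30 genes was called in each direction, SLC1A4, a transporter of neutral amino acids, at 0.64 and VLDLR, a lipoprotein receptor, at -1.76. The aminoacyl-tRNA synthetases of the cytosol (20), the nuclear respiratory chain (39), the mitochondrially encoded genes (12 tested) and the proteasome (31) held no call, with 1, 0, 0 and 0 higher and 5, 6, 4 and 3 lower at the adjusted p alone. The 20 NRF2 targets held 3 calls, all lower, among them ME1 and the aldo-keto reductase AKR1C1 (-0.74, adjusted p = 0.00483). At the adjusted p alone 3 of them were higher and 5 lower, and their median was 0.04. Over all genes tested 8.83% were higher and 10.1% lower at the adjusted p alone.

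Among genes outside the lists, the largest rises in genes with a mean of at least 100 normalized counts included NTM, a neural adhesion protein, at 249.2, 256.3 and 219.4 with etoposide and 1156, 1125 and 1420 with rapamycin (2.35, standard error 0.11, adjusted p = 5.87e-08). PMEPA1, a target and inhibitor of TGF-beta signalling, was at 2046, 2406 and 2249 against 6879, 6702 and 6738 (1.60, standard error 0.062, adjusted p = 2.01e-08). NKILA, a non-coding RNA that overlaps PMEPA1 on the opposite strand, had 1.57, and reads of the pair cannot be told apart without strand. Apart from the read-through names FAM47E-STBD1 and INO80B-WBP1, described below, the remaining large rises were COL22A1 (1.86), SERPINB2 (1.51), PLPP4 (1.42), FGF13 (1.37) and KLF2 (1.33), with no overlap between the groups.

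After CA9, MIR210HG, SFN and ALDOC, the large falls were those of IGFL2-AS1 (-2.30), the alkaline phosphatase ALPP (-2.26), the carboxypeptidase CPA4 (-2.14), ZNF488 (-1.99), the lysosomal membrane protein LAPTM5 (-1.93) and the lipase LIPH (-1.84), with 1 row that carries a clone name passed over. The read-through name BIVM-ERCC5 (-2.54), with a larger fall than SFN, is described below. CPA4 was at 1592, 1416 and 1385 against 295.1, 347.5 and 351.7 with rapamycin. Among long non-coding RNAs, LINC02334 fell by 1.52 on the log2 scale, and TMEM132D-AS1 and GUSBP11 had 0.99 and 1.12, the last in a locus with other names, whose sum was not called (0.25, adjusted p = 0.0747).

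Read-through names need care, because they share exons with the genes they join. FAM47E-STBD1 was at 24.0, 29.4 and 27.0 against 154.9, 202.6 and 179.8 with rapamycin (2.74), while STBD1, which tethers glycogen to membranes, was at 306.2, 375.8 and 340.2 against 120.4, 105.7 and 145.1 (-1.46). The summed locus had -0.35 (adjusted p = 0.0185) and was not called, a sum chosen after the data were seen. INO80B-WBP1 had 1.499 alone and 0.21 as a locus. BIVM-ERCC5 was at 913.6, 1625 and 993.7 against 585.2, 0 and 12.9 (-2.54, adjusted p = 0.0494), and the locus had 0.05. Leaving out any library but etoposide + rapamycin replicate 1 ended that call, with adjusted p-values of 0.094 to 0.156. In all, 158 of the 943 called rows lie in a locus with several names.

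**Figure D4:**
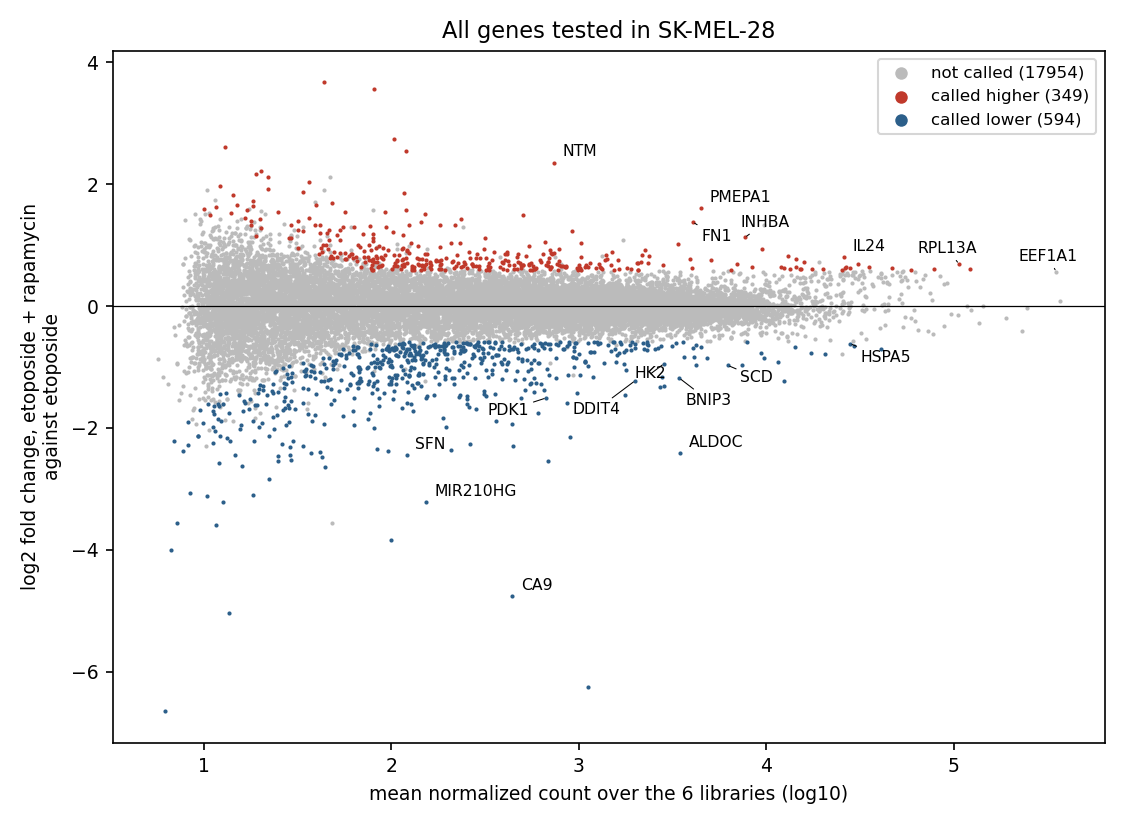
Log2 fold change (etoposide + rapamycin against etoposide) against the mean normalized count over the 6 libraries (log10) for the 18897 genes tested, with the 349 called higher in red and the 594 called lower in blue. CA9 (-4.76) and ALDOC (-2.42) stand below the other labelled genes of similar count, and NTM (2.35) and PMEPA1 (1.60) above.

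The 21 genes that the study names in its pathway table were all called here, 6 higher and 15 lower. The study chose them on these libraries, so the count is no independent evidence of direction. The lower genes include the glutamate receptor GRIN2B (-1.59), the phosphatase subunit PPP2R2B (-1.13), the ligase RNF152 (-0.72) and the oncostatin M receptor OSMR (-0.68), and the higher ones include the WNT receptor FZD8 (0.75). OSMR was at 5218, 4754 and 5097 against 3479, 2840 and 3056 with rapamycin.

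Markers of other cell types were detected in part. KDR, KRT10 and LYZ, the leading ones, averaged 1995, 1538 and 759.9 normalized counts. Of 6 keratinocyte markers 2 passed the filter, and their summed level over the 6 was 49.0, 60.5 and 61.3 CPM with etoposide and 55.1, 60.6 and 53.7 with rapamycin, with KRT10 the most abundant per length. Of 6 fibroblast markers 4 passed, summing to 39.9, 32.2 and 35.8 against 20.9, 23.0 and 24.8 with rapamycin, mostly LUM, a matrix proteoglycan that was called lower (-0.66), but not without etoposide replicate 1 (-0.57). Of 5 leukocyte markers 2 passed, summing to 34.4, 31.5 and 33.2 against 14.7, 19.4 and 19.1, mostly LYZ, lysozyme (-0.85, called lower). CD3E and CD14 had at most 7 and 5 raw counts. The 4 endothelial markers summed to 69.1, 66.8 and 70.9 against 72.3, 67.3 and 72.8, mostly KDR, and PECAM1 (mean of 55.2 normalized counts) was called lower (-0.70, adjusted p = 0.0488), a call that DESeq2 and the removal of any 1 library ended. Whether these levels have a part in any result was not tested.

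A375 served to show where SK-MEL-28 differs. In 1 fit of all 12 libraries the response differed between the lines for 1130 of 20101 genes (5.62%) at an adjusted p under 0.05, a count that was 594 without A375 etoposide + rapamycin replicate 3, 642 without A375 etoposide replicate 3, 710 without SK-MEL-28 etoposide + rapamycin replicate 2, 616 without SK-MEL-28 etoposide replicate 2 and 705 without SK-MEL-28 etoposide replicate 3. The response differed for 44 of the 143 named genes, a count raised by the naming rule, which takes the 5 largest differences in each direction, and so not to be read against that share. FN1 had 1.38 in SK-MEL-28 and -0.11 in A375, which is 1.49 apart (adjusted p = 2.35e-07, standard error 0.094). The difference was also positive for PMEPA1 (1.14), NTM (1.17) and PLPP4 (1.29). ITGA9 had -0.89 and 0.47 (difference -1.36, adjusted p = 9.32e-05). CRISPLD2 and EFR3B had differences of -1.67 and -1.54, with values near 0 in A375. STBD1 had -1.56 and is uncertain, since FAM47E-STBD1 of the same locus had 3.95 and the difference of the summed locus was not computed. Of 36 mitosis genes 12 differed, all with the lower value in SK-MEL-28, where the median was -0.06 against 0.45 in A375. TOP2A had -0.32 and 0.48 (difference -0.80, adjusted p = 7.89e-06). Glycolysis members differed in 16 of 23 cases, all with the lower value in SK-MEL-28, against medians of -0.41 there and -0.20 in A375. Of the 79 ribosomal protein genes 4 differed, all with the higher value in SK-MEL-28, and the medians were 0.50 and 0.40.

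**Figure D5:**
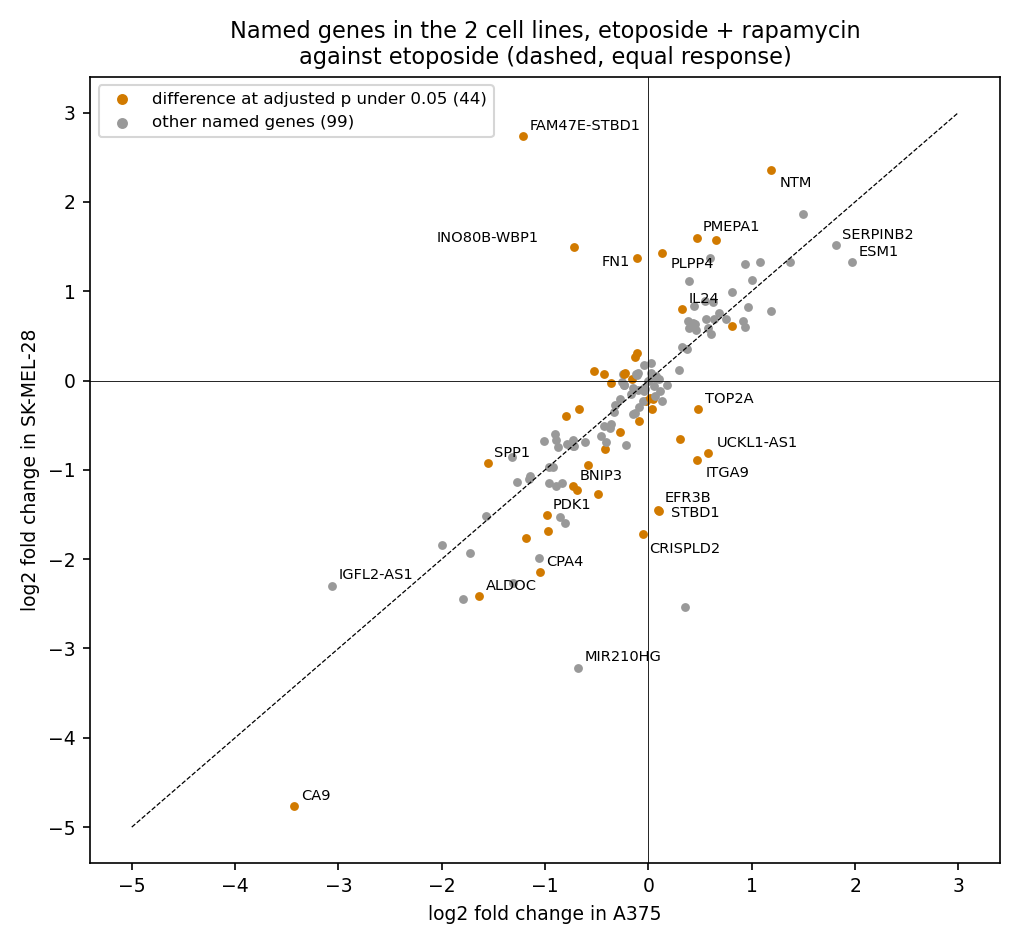
Log2 fold changes of the 143 named genes in A375 (x axis) and SK-MEL-28 (y axis), from etoposide + rapamycin against etoposide, with the 44 whose response differed at an adjusted p under 0.05 in orange and the dashed line marking an equal response. FN1, PLPP4 and PMEPA1 lie above the line and CRISPLD2, EFR3B and ITGA9 below it.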

How the data were processed

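Polyadenylated RNA was sequenced by the authors, aligned with HISAT2 to GRCh38 and assembled with StringTie. The deposited values are whole-number counts per row, and 1892 rows share a gene name with another. How coverage became counts is not given in the sources used here. The 6 SK-MEL-28 libraries were fitted in edgeR 4.0.16 (limma 3.58.1, R 4.3.3) with filterByExpr at a minimum count of 10, TMM scaling, the quasi-likelihood test and Benjamini-Hochberg adjustment over all 18897 genes. Normalized counts were scaled to the mean effective library size. The biological coefficient of variation was 0.0957. The 5 rows without a name were left out. DESeq2 1.42.0 and the settings in the closing section were alternatives, and the code was tested on simulated data. The difference between lines was the interaction in a fit of 12 libraries. Promoters came from RefSeq, and exon lengths and gene overlaps from GENCODE.

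Named genes were the 12 largest called rises and falls with a mean of at least 100 normalized counts and groups apart (1 of the falls, a row with a clone name, was counted and not named), up to 3 called members in each direction and the 2 highest members of each list, the study's own pathway genes, drug targets, the 5 largest differences between lines in each direction, and the 3 leading non-coding genes in each direction. The genes and lists were chosen with earlier results of these data known. Some genes that this rule names are not reported here.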

Additional observations from a re-analysis of the deposited data

Results flagged for a closer look

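The 27 named genes given here were picked out because they were called in SK-MEL-28 and the test of the interaction found a response that differed from that in A375. Each value is the log2 difference, SK-MEL-28 minus A375. Among genes of low oxygen and glycolysis the response was more negative in SK-MEL-28 for CA9 (-1.33), ALDOC (-0.78), PDK1 (-0.52), PPFIA4 (-0.78), DDIT4 (-0.53), BNIP3 (-0.45), HK2 (-0.36) and NDRG1 (-0.35). It was also more negative for CRISPLD2 (-1.67), STBD1 (-1.56), EFR3B (-1.54), UCKL1-AS1 (-1.39), ITGA9 (-1.36), CPA4 (-1.09), MMP1 (-0.96), ITGA11 (-0.70) and VLDLR (-0.57). The positive differences were those of FN1 (1.49), PLPP4 (1.29), NTM (1.17), PMEPA1 (1.14), NKILA (0.92), SPP1 (0.63) and IL24 (0.48), of which SPP1 was lower in both lines, by less in SK-MEL-28. EEF2 rose in both lines and by less in SK-MEL-28 (-0.19). The read-through names FAM47E-STBD1 (3.95) and INO80B-WBP1 (2.23) share loci with other genes, and STBD1 lies in the locus of the former, so its difference is uncertain too. The summed loci were not among the alternatives of the difference. Of the 27 differences 20 stayed past the threshold in all 17 alternatives, and CA9, HK2, FAM47E-STBD1, EEF2, PDK1, VLDLR and ITGA11 lost it in 11, 11, 14, 9, 9, 7 and 5 of them. The cause of the differences was not tested.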

How the results depend on the processing

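The 349 higher and 594 lower genes stayed within 1.5 times of those counts with other size factors, library totals, DESeq2, other filters, a fit of all 12 libraries, halved counts and summed names, at 273 to 371 higher and 485 to 673 lower. Leaving out 1 library gave 300 to 350 higher and 508 to 604 lower. With no fold change threshold there were 1668 and 1914, and a test against a fold change of 1.5 called 30 and 136. Genes whose response differed between the lines numbered 1130, but 1738 by DESeq2, 658 with a filter of 1 count and 594 to 1315 without 1 library. The share of higher calls was 37.0%, and 30.3% with library totals, where the median of all genes was -0.03. A call was lost in at least 1 alternative for 15 of 84 called named genes. That count leaves out FAM47E-STBD1, which reversed and was not called as a summed locus. With the names of a locus summed, BIVM-ERCC5 reversed to a log2 fold change of 0.054 and FAM47E-STBD1 to -0.35, an alternative chosen after seeing the data. The cause of the other shifts was not tested. How coverage became counts is not stated, so precision rests on the spread between 3 libraries.

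Same-numbered libraries showed no shared deviation, with correlations of -0.01, -0.002 and -0.07 between their deviations from the group means. Replicate numbers were therefore not used to pair the samples in the main fit. These correlations cannot show whether same-numbered samples were handled together. With a replicate block 325 genes were higher, 572 were lower and 620 differed between the lines, and among the named genes it ended the call of IGF1R (0.58).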
